A study of Rattus norvegicus with 24 samples.

Results

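NMDA and AMPA receptors are the main ion channels that glutamate opens at excitatory synapses, and their subunits are the subject here. The members were all probe sets whose platform gene symbol was one of 9 names, Grin1, Grin2a, Grin2b, Grin2c and Grin2d for the NMDA receptor and Gria1, Gria2, Gria3 and Gria4 for the AMPA receptor. This gave 21 probe sets, 11 for NMDA and 10 for AMPA subunits, out of 7018 probe sets that carry a single symbol and stand for 4737 genes. All 21 passed the filter on low values, which required an intensity above 16.5 on at least 3 of the 24 arrays.

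RNA from rat whole brain was hybridised to 24 single-colour arrays. The exposed rats breathed an inhaled anaesthetic for 90 min at a time, 2 times per day with 3 h of recovery, and there were 3 arrays for each combination of agent and number of exposures. Halothane was given at 0.8% and isoflurane at 1.0%, and the shorter course of 5 exposures took 2.5 days, the longer course of 10 took 5 days. The 12 control arrays stand for rats with no repeated exposure, but with halothane for 3 min before perfusion with ice-cold saline, so the control is not free of anaesthetic. Nothing in the labels states whether arrays of a group came from different rats, so every test below measures the spread between arrays, part of which may be technical.

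An NMDA receptor is built from GluN1, the subunit every such receptor needs and the one that binds the co-agonist glycine, together with GluN2 subunits that bind glutamate. Its channel admits calcium and is blocked by magnesium at resting voltage. AMPA receptors carry the fast part of the excitatory current, and their GluA2 subunit, made from edited Gria2 RNA, keeps calcium out. Halothane and isoflurane are both known to depress excitatory transmission and to enhance inhibition through GABA-A receptors.

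No member passed the test in any comparison. With limma and a Benjamini-Hochberg adjusted p under 0.05 as the rule, 0 of 21 probe sets were called after 5 halothane exposures (0.0135% of the 7389 probe sets tested were called), 0 after 10 halothane exposures (0.0406%), 0 after 5 isoflurane exposures (0.00%) and 0 after 10 isoflurane exposures (0.00%), each against control. At an unadjusted limma p under 0.05 the counts of members were 1, 4, 0 and 2 in the same order. That is 4.76%, 19.0%, 0.00% and 9.52% of the members, beside 3.53%, 7.52%, 2.14% and 9.05% of all probe sets tested. Values for single members are given as measured levels and differences, none of which was called. The median half-width of the members' 95% intervals against control was 0.49 on the log2 scale, with a range of 0.22 to 1.03.

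The arrays are comparable in scale, with trimmed means between 150.15 and 150.18 and medians between 53.5 and 64.9. They do fall into 2 sets by the level of the bacterial spike-in transcripts, with a gap of 0.57 on the log2 scale. The 9 arrays with the higher spike-in level are controls 1, 3, 10, 11 and 12 and replicate 3 of every exposed group. The labelled tissue was checked against fixed markers: 10 of 10 pan-neuronal, 8 of 8 astrocyte and 8 of 8 oligodendrocyte markers on the array were above 16.5 on all 24 arrays. Of the 5 hippocampal and cortical neuron markers on the array, 4 were above 16.5 on all 24 arrays. The remaining one, Slc17a7, the vesicular glutamate transporter of cortical neurons, was at or below it on all of them. In whole brain, fewer cells of a type and less RNA per cell cannot be told apart.

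Grin1 encodes GluN1 and has 4 probe sets. On the brightest, S39221_g_at, control intensity ran from 46.9 through a median of 109.25 to 137.5. The 3 arrays read 50.3, 96.9 and 123.1 after 5 halothane exposures, 153.1, 104.9 and 86.8 after 10, 144.6, 107.0 and 102.6 after 5 isoflurane exposures, and 64.4, 103.5 and 82.3 after 10. Apart from the arrays at 153.1 and 144.6, which exceeded every control, these values lay within the control range. The log2 differences from control were -0.32, 0.09, 0.15 and -0.36 in that order, and the interval of the last ran from -0.91 to 0.20. Each rests on single arrays: without the array at 50.3 the first was 0.06, without those at 153.1 and 144.6 the second and the third were -0.14 and -0.002, and without the array at 64.4 the last was -0.19. The probe set U11418_s_at showed single arrays far below the rest: 12.9 in 1 array after 5 halothane exposures, whose companions read 93.9 and 64.5, and 21.9 in 1 array after 10 isoflurane exposures, whose companions read 79.1 and 58.4. Control arrays also reached down to 20.5 on this probe set. S39221_at was dim, above 16.5 on 15 of 24 arrays, and carries little information on Grin1. L19708_at was above 16.5 on 21 of 24 arrays, with a mean of 30.9 ± 12.9 in controls (SD, n = 12). Its means were 31.0 ± 14.6 and 35.0 ± 8.7 after 5 and 10 halothane exposures (SD, n = 3 each). After 5 and 10 isoflurane exposures they were 39.7 ± 19.3 and 23.3 ± 7.9 (SD, n = 3 each).

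Grin2a encodes GluN2A, the GluN2 subunit that becomes common in the forebrain as it matures. On its brighter probe set, AF001423_at, the controls ran from 105.0 through a median of 174.2 to 298.4. After 10 halothane exposures the 3 arrays read 148.3, 60.9 and 118.4, and after 5 they read 152.0, 122.2 and 80.9. In both halothane groups all arrays lay below the control median and 1 array lay below every control, while the others overlapped with the controls. Intensity was 180.8 ± 55.0 in controls (SD, n = 12) and 109.2 ± 44.4 after 10 halothane exposures (SD, n = 3), a log2 difference of -0.76 ± 0.29 (SE) with an interval from -1.37 to -0.16 and a limma adjusted p of 0.53. After 5 halothane exposures the log2 difference was -0.60 (adjusted p = 1). The isoflurane arrays read 248.2, 138.1 and 92.6 after 5 exposures and 137.8, 139.1 and 175.5 after 10, with log2 differences of -0.24 and -0.21. The array at 92.6 was also below every control, and without it the first of these was 0.09. The second was -0.32 without the array at 175.5 and -0.14 without control 4. The halothane values rest in part on single arrays. After 10 exposures the difference was -0.39 without the array at 60.9, and after 5 exposures it was -0.35 without the array at 80.9. The lowest values with 1 array left out were -1.03 and -0.80. The other probe set, D13211_s_at, gave -0.10 after 10 halothane exposures, and the pair correlated at Pearson's r = 0.24 over 24 arrays.

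Grin2b encodes GluN2B, the GluN2 subunit that predominates early in life and stays high in the adult forebrain. Its single probe set, U11419_at, had the smallest coefficient of variation of the 21 over the 24 arrays, 12.2%. Controls ran from 177.8 through a median of 199.4 to 265.3. After 10 isoflurane exposures the arrays read 177.6, 153.2 and 176.1, and all 3 lay below every control, though the highest of them did so by a margin of only 0.2 units. It was the 1 probe set of the 21 (4.76%) whose arrays all lay below every control in that comparison, as did 0.433% of all probe sets tested. After 5 halothane, 10 halothane and 5 isoflurane exposures 0 members lay wholly below the controls, beside 0.230%, 0.528% and 0.0947% of all probe sets. Wholly above them lay 0 members in any exposed group, beside 0.122% and 0.595% of all probe sets after 5 and 10 halothane exposures and 0.135% and 0.487% after 5 and 10 isoflurane exposures. Mean intensity was 204.1 ± 24.5 in controls (SD, n = 12) and 169.0 ± 13.7 in this group (SD, n = 3), a log2 difference of -0.27 ± 0.11 (SE) with an interval from -0.49 to -0.04 and a limma adjusted p of 0.46. Leaving out 1 array at a time gave -0.31 to -0.20, and the low spike-in arrays alone gave -0.30. The arrays after 5 isoflurane exposures read 217.6, 210.5 and 204.4, inside the control range. The log2 difference between 10 and 5 isoflurane exposures was -0.32 (adjusted p = 1). Halothane arrays read 185.3, 204.3 and 244.4 after 5 exposures and 181.9, 178.0 and 200.3 after 10, all within the control range.

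Grin2c encodes GluN2C, the subunit of mature cerebellar granule cells. D13212_s_at ran from 261.4 through 486.1 to 695.6 in controls, and controls 10 and 12 were the lowest. The group means were 487.2 ± 38.9 and 406.8 ± 61.8 after 5 and 10 halothane exposures, and 505.5 ± 39.9 and 406.6 ± 65.9 after 5 and 10 isoflurane exposures (SD, n = 3 each), against 481.7 ± 131.7 in controls (SD, n = 12). Both groups of 10 exposures had the lower mean of their agent, with log2 differences from control of -0.20 and -0.20, inside the spread of the controls. Without replicate 2 of the halothane group and replicate 1 of the isoflurane group they were -0.09 and -0.09. The lowest values with 1 array left out were -0.31 and -0.32. The low spike-in controls had a mean of 523.8 ± 80.6 (SD, n = 7), and the high spike-in controls 422.6 ± 174.6 (SD, n = 5). The second probe set, U08259_r_at, did not follow the first over the arrays (r = -0.13). After 5 halothane exposures it read 84.5, 21.1 and 56.8, a log2 difference from control of -0.58 (adjusted p = 1). That value rests on 1 array, since it was -0.004 without the array at 21.1 and -1.01 without the array at 84.5.

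Grin2d encodes GluN2D, found mostly in the diencephalon, brainstem and interneurons. On D13213_s_at the controls ran from 64.7 through 78.1 to 116.9. The arrays read 72.9, 59.7 and 50.4 after 5 halothane exposures and 73.0, 58.4 and 60.3 after 10. In each halothane group 2 of the 3 arrays were below every control, and the remaining one lay near the lower end of the control range. The log2 differences were -0.46 ± 0.17 (SE; adjusted p = 1) and -0.38 ± 0.17 (SE; adjusted p = 0.64), both from limma. After isoflurane the arrays read 83.8, 77.7 and 99.2 for 5 exposures and 68.5, 72.8 and 81.0 for 10, all within the control range. The brighter probe set of the gene, U08260_at, gave smaller differences after halothane, -0.15 and -0.26, the second of which was -0.10 without the array at 55.5 and -0.43 without that at 87.5. Its means were 84.5 ± 11.6 in controls (SD, n = 12) and 70.9 ± 16.0 after 10 halothane exposures (SD, n = 3).

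**Figure D1:**
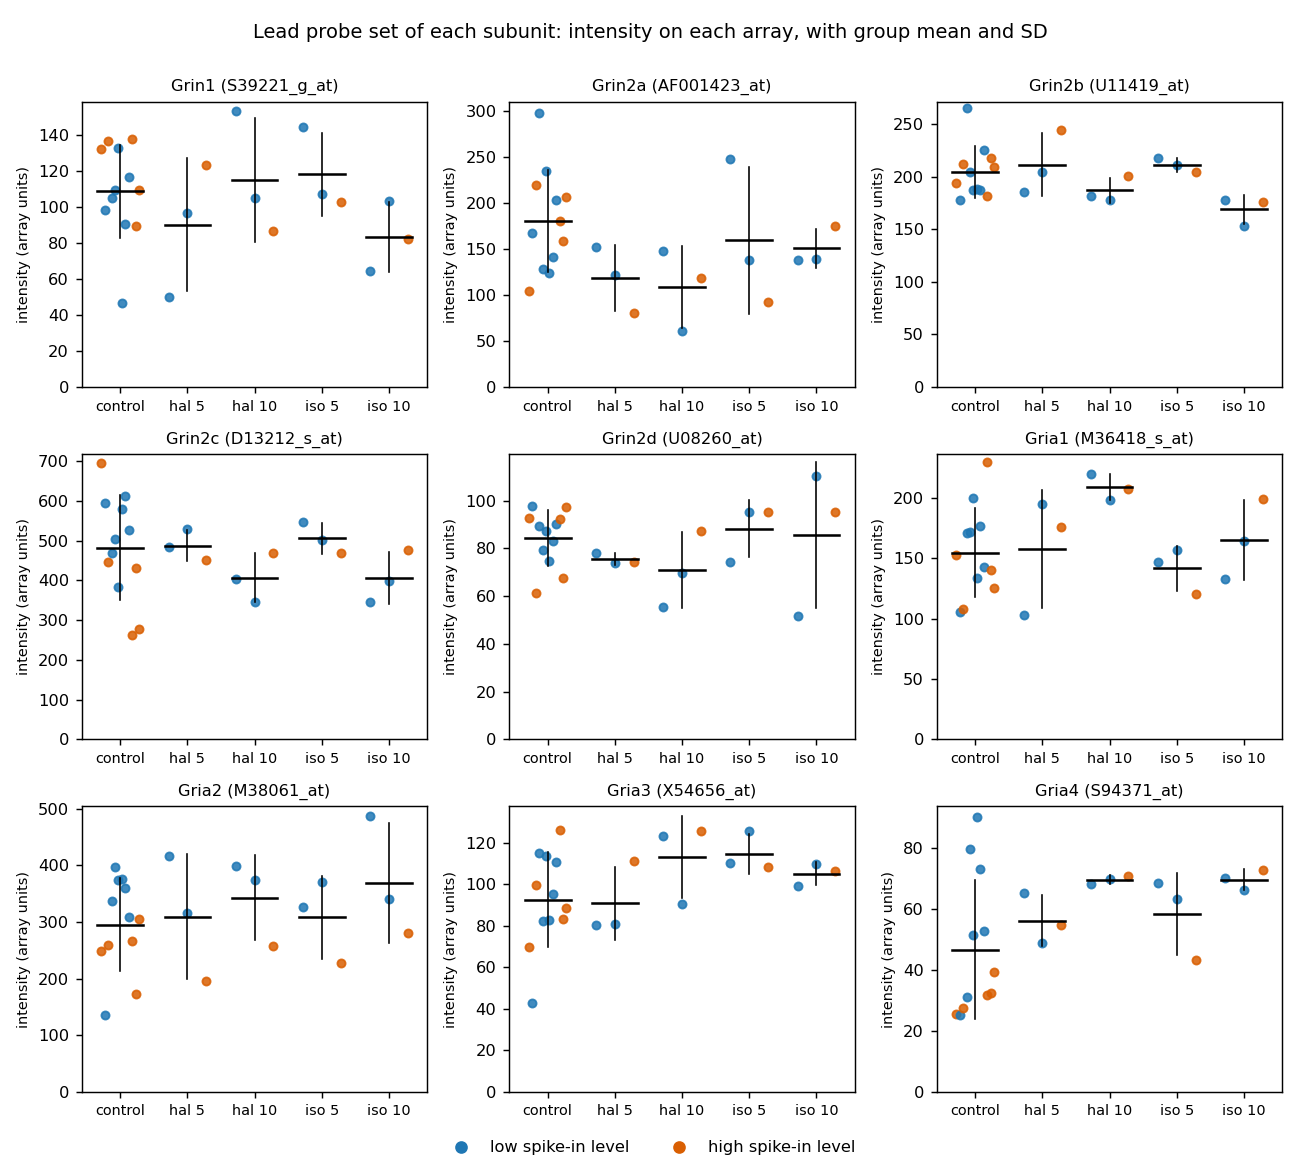
Intensity in array units (vertical axis, linear, from 0) of the brightest probe set of each of the 9 subunits in control, halothane (hal) and isoflurane (iso) arrays after 5 or 10 exposures; points are arrays coloured by spike-in level, horizontal bars the group mean and vertical lines 1 SD. All 3 Grin2b arrays after 10 isoflurane exposures (153.2 to 177.6) lie below the lowest control at 177.8, and the Gria4 controls spread from 25.3 to 90.3.

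Gria1 encodes GluA1, an AMPA subunit that is moved into synapses during plasticity and is abundant in hippocampus and cortex. M36418_s_at ran from 105.4 through 147.7 to 230.1 in controls. After 10 halothane exposures the arrays read 220.2, 198.8 and 207.5, in the upper part of the control range but not beyond it. The mean was 208.8 ± 10.8 (SD, n = 3) against 154.9 ± 37.0 in controls (SD, n = 12), a log2 difference of 0.47 ± 0.20 (SE) with an interval from 0.05 to 0.89 and a limma adjusted p of 0.63. The other groups were spread through the control range, apart from 1 array just under it, with 102.8, 195.1 and 176.1 after 5 halothane exposures, 147.2, 157.4 and 120.8 after 5 isoflurane exposures and 133.1, 164.3 and 199.4 after 10. The other probe sets of the gene differed from the first in the halothane comparison. S56679_s_at read 108.3, 108.2 and 108.7 after 10 halothane exposures, a log2 difference of 0.01, and X17184_at gave 0.24.

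Gria2 encodes GluA2, the subunit that sets calcium permeability. M38061_at ran from 135.0 through 307.2 to 397.4 in controls. The arrays read 398.7, 373.6 and 257.0 after 10 halothane exposures and 486.8, 341.0 and 279.9 after 10 isoflurane exposures. In each of these groups 1 array exceeded every control and the others lay within them. The log2 differences were 0.26, with an interval from -0.30 to 0.81, and 0.35, with an interval from -0.21 to 0.91. After 5 exposures the arrays read 416.0, 316.2 and 195.7 for halothane and 326.2, 370.7 and 228.2 for isoflurane, with differences of 0.07 and 0.10. With 1 array left out at a time these ranged from 0.14 to 0.45 (without 398.7 and without 257.0) after 10 halothane exposures and from 0.13 to 0.53 (without 486.8 and without 279.9) after 10 isoflurane exposures. After 5 exposures the sign was not stable, at -0.18 without the halothane array at 416.0 and -0.05 without the isoflurane array at 370.7. In all 4 exposed groups the lowest array was replicate 3, which is on the high spike-in side, and the high spike-in controls had a mean of 250.4 ± 48.7 (SD, n = 5) against 326.8 ± 89.3 in the other controls (SD, n = 7). Among the low spike-in arrays alone the differences after 10 exposures were 0.31 for halothane and 0.39 for isoflurane. M36419_s_at gave differences of 0.01 and 0.12 after 10 exposures to halothane and isoflurane.

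Gria3 encodes GluA3, which in forebrain often pairs with GluA2. X54656_at ran from 42.8 through 91.8 to 126.0 in controls. The arrays read 123.3, 90.5 and 125.8 after 10 halothane exposures, 110.0, 125.7 and 108.3 after 5 isoflurane exposures and 98.9, 109.9 and 106.4 after 10. All of these lay inside the control range, and all but 1 lay above the control median. The log2 differences from control were 0.33, 0.36 and 0.23, and that after 5 halothane exposures (80.2, 80.9 and 111.0) was 0.01, or -0.15 without the array at 111.0. The value after 10 isoflurane exposures was 0.14 without control 2. The intervals of all 4 included 0. On M36420_s_at the controls ran from 36.9 to 141.3, and controls 1, 2 and 3, at 46.2, 36.9 and 60.0, were the lowest. Its log2 difference was 0.32 after 10 halothane exposures (limma adjusted p = 0.82) and 0.24 over all exposed groups (adjusted p = 0.74).

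Gria4 encodes GluA4, the AMPA subunit of cerebellar neurons and glia, of brainstem and of fast-spiking interneurons. S94371_at showed the widest relative spread among the controls of any brightest probe set, from 25.3 through a median of 35.9 to 90.3, a coefficient of variation of 49.0%. Controls 1 to 4 and 10 to 12 read 25.3 to 39.3, and controls 5 to 9 read 51.3 to 90.3. The exposed arrays read 65.2, 48.7 and 54.6 after 5 halothane exposures, 68.2, 69.8 and 70.9 after 10, 68.4, 63.4 and 43.2 after 5 isoflurane exposures and 70.0, 66.1 and 72.8 after 10. All 12 exposed arrays lay inside the control range. The split of the controls is read from these same values, so the exposed arrays were not compared with either part of it. Both groups of 10 exposures had a mean of 69.6, with SDs of 1.36 and 3.37 (n = 3 each), against 46.6 ± 22.9 in controls (SD, n = 12).

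The log2 difference of Gria4 S94371_at was 0.72 ± 0.32 (SE) after 10 exposures to either agent, with limma adjusted p values of 0.65 for halothane and 0.50 for isoflurane. Over all 12 exposed arrays it was 0.57 ± 0.20 (SE), with an interval from 0.15 to 1.00 and an adjusted p of 0.44. All 5 high spike-in controls were among the low ones, at 31.2 ± 5.4 (SD, n = 5) against 57.6 ± 24.5 in the 7 low spike-in controls (SD, n = 7). Among the low spike-in arrays alone the differences were 0.39 and 0.37 after 10 exposures and 0.30 for all exposed groups (adjusted p = 0.72). S94371_g_at, whose arrays followed S94371_at (r = 0.79), gave 0.63 and 0.34 after 10 exposures to halothane and isoflurane, but 0.15 and -0.13 among the low spike-in arrays. Its value for all exposed groups was 0.35, and 0.05 among the low spike-in arrays. M36421_s_at gave 0.10 and 0.17 after 10 exposures.

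**Figure D2:**
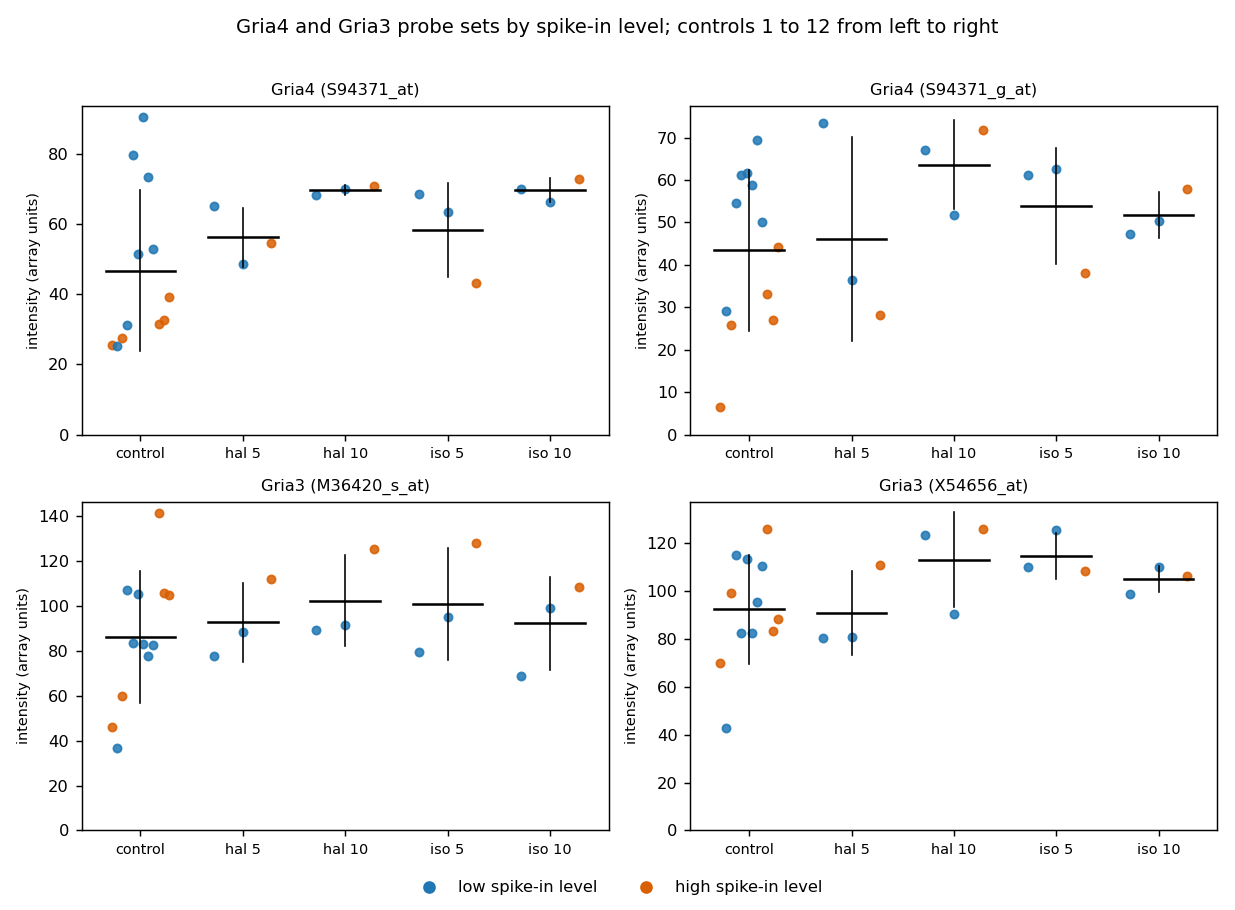
Intensity in array units (vertical axis, linear, from 0) of 2 Gria4 and 2 Gria3 probe sets on every array, coloured by spike-in level, with controls 1 to 12 placed from left to right; horizontal bars are group means and vertical lines 1 SD. On Gria4 S94371_at, controls 5 to 9 (51.3 to 90.3) stand above the other 7 (25.3 to 39.3), and on Gria3 M36420_s_at controls 1 to 3 (36.9 to 60.0) are the lowest.

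The families were described by the sign and the median of their probe sets' log2 differences. After 10 halothane exposures 10 of 10 AMPA probe sets were higher than in control, with a median of 0.29, while 4 of 11 NMDA probe sets were higher, with a median of -0.10. After 10 isoflurane exposures 8 of 10 AMPA probe sets were higher, with a median of 0.16, and 2 of 11 NMDA probe sets were higher, with a median of -0.20. The medians over all probe sets tested were -0.03 and -0.003 in these comparisons. The AMPA median thus lay above and the NMDA median below that of all probe sets in both groups of 10 exposures, with no single member called. Quantile normalisation and median centring kept these directions. With 1 array left out at a time, 8 to 10 AMPA probe sets were higher after 10 halothane exposures and 8 after 10 isoflurane exposures. The NMDA counts were then 3 to 5 and 1 to 3. Without control 2, an array low for Gria2, Gria3 and Gria4, the AMPA medians were 0.19 and 0.10, and the NMDA median after halothane was -0.03 without control 4.

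After 5 halothane exposures 8 of 10 AMPA probe sets and 3 of 11 NMDA probe sets were higher than in control, with medians of 0.06 and -0.15. After 5 isoflurane exposures the counts were 7 of 10 and 10 of 11, with medians of 0.14 and 0.12, so there both families were on the higher side, beside -0.008 and 0.006 for all probe sets. The AMPA median after 5 halothane exposures was -0.03 without control 2, so its direction is not settled. All exposed groups were compared with the same 12 controls, and several probe sets measure the same gene, so these counts are not independent of each other. Among low spike-in arrays the AMPA median was 0.17 after 10 halothane exposures, 0.06 after 10 isoflurane exposures and -0.03 after 5 halothane exposures, and the NMDA medians after 10 exposures were -0.18 for halothane and -0.28 for isoflurane.

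**Figure D3:**
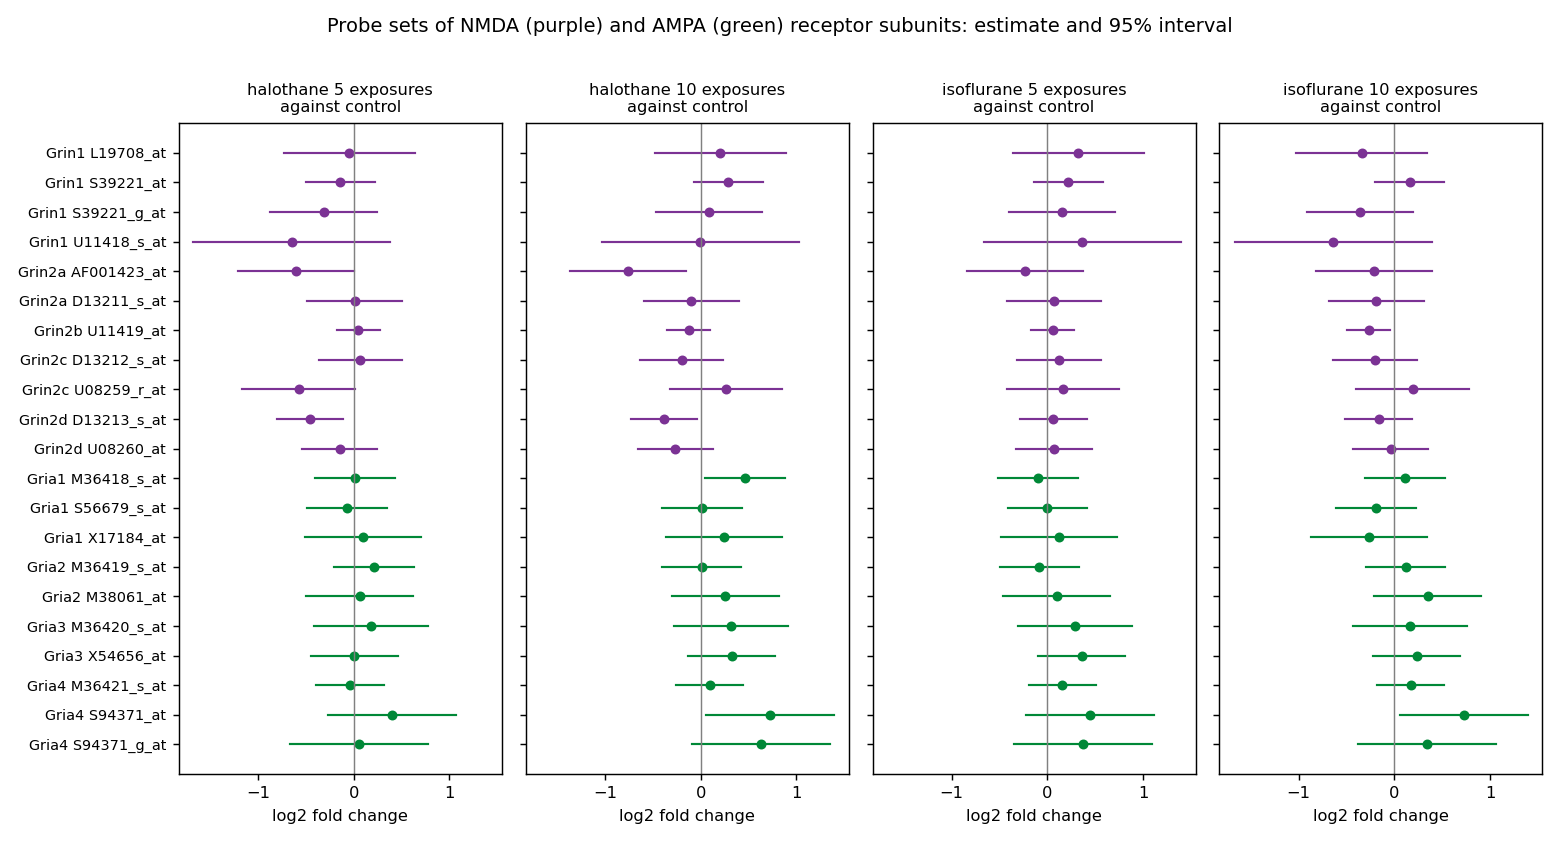
Log2 fold change against control (horizontal axis) with its 95% interval from limma for all 21 probe sets, NMDA subunits in purple and AMPA subunits in green, in 4 panels by agent and number of exposures. After 10 halothane exposures all 10 AMPA estimates are above 0, with a median of 0.29, and most intervals cross 0 in every panel.

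With all 12 exposed arrays set against control, 0 of 21 members were called by limma (0.00% of all probe sets), and 3 of 21, 14.3%, had an unadjusted p under 0.05, beside 8.44% of all probe sets. These were Gria4 S94371_at on the higher side, and Grin2a AF001423_at (-0.45 ± 0.19, SE; adjusted p = 0.48) and Grin2d D13213_s_at (-0.24 ± 0.11, SE; adjusted p = 0.56) on the lower. The medians were 0.16 for AMPA and -0.07 for NMDA probe sets, beside -0.01 for all probe sets tested.

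The agents were compared at the same number of exposures, at concentrations that differ (0.8% halothane, 1.0% isoflurane). At 5 exposures 0 of 21 members were called by limma (0.0135% of all probe sets were) and 1 had an unadjusted p under 0.05 (2.98% of all probe sets did). All 11 NMDA probe sets were lower after halothane than after isoflurane, with a median log2 difference of -0.36, and 8 of 10 AMPA probe sets were lower, with a median of -0.05. The median over all probe sets in this comparison was 0.01 after median centring. That setting gives all arrays a common median, so a value near 0 follows from it and is no reference for the members. With 1 array left out, up to 4 of the 11 NMDA probe sets were higher after halothane. Grin2d D13213_s_at, the probe set with the unadjusted p under 0.05, differed by -0.52 (adjusted p = 1). It read 72.9, 59.7 and 50.4 after halothane and 83.8, 77.7 and 99.2 after isoflurane. How many of all probe sets had 2 such groups wholly apart was not counted. At 10 exposures 0 of 21 were called by limma (0.00%) and 0 had an unadjusted p under 0.05 (3.11% of all probe sets did). There 8 of 11 NMDA probe sets and 7 of 10 AMPA probe sets were higher after halothane, with medians of 0.09 and 0.13. The median over all probe sets was 0.0 after median centring, again near 0 by the setting itself. The NMDA median at 5 exposures was -0.17 without replicate 3 of the isoflurane group and -0.20 without replicate 2 of the halothane group, and that at 10 exposures turned to -0.04 without replicate 3 of the halothane group.

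Between 10 and 5 exposures of the same agent, 0 of 21 members were called by limma for halothane (0.0135% of all probe sets were) and 0 for isoflurane (0.00%). At an unadjusted p under 0.05 there was 1 member for halothane (3.76% of all probe sets), Grin2c U08259_r_at at 0.84, which was 0.27 without the array at 21.1. For isoflurane there was also 1 (3.00% of all probe sets), Grin2b. The median NMDA difference between 10 and 5 isoflurane exposures was -0.26, with 2 of 11 probe sets higher, and that for halothane was 0.08, with 6 of 11 higher, and -0.10 without replicate 2 of the shorter halothane course. Over all probe sets the medians after median centring were 0.02 for isoflurane and 0.0 for halothane, which that setting keeps near 0 by construction. The test of whether the effect of exposure number differed between agents called 0 of 21 members (0.00%), with 0 at an unadjusted p under 0.05 (2.00% of all probe sets). Its largest member value was 1.65 for Grin1 U11418_s_at (adjusted p = 1), the probe set with the single low arrays, and it was 0.90 without the array at 12.9.

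The order of the group means differed between subunits. Among the brightest probe sets, the group with 5 isoflurane exposures was highest for 5 of 9 genes (Grin1, Grin2b, Grin2c, Grin2d and Gria3, on the log2 scale), and control was lowest for 3 (Gria2, Gria3 and Gria4). Of the 36 gaps between neighbouring groups in these orders, 2 exceeded the larger SD of the pair. These were the gap between 10 halothane and 10 isoflurane exposures for Grin2b, 0.15 against an SD of 0.12, and the same gap for Gria1, 0.35 against 0.29. The other neighbours differed by less than their spread.

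Probe sets of the same gene followed each other over the 24 arrays to different degrees. Of 17 pairs, 5 had an adjusted permutation p under 0.05 for Pearson's r. They were the pair S94371_at and S94371_g_at of Gria4 (Pearson's r = 0.79, Spearman's rho = 0.69, permutation p = 2e-05, adjusted 0.00034), the Gria3 pair (r = 0.76, rho = 0.61, permutation p = 7e-05, adjusted 0.000595), the Gria2 pair (r = 0.73, rho = 0.68, permutation p = 0.00013, adjusted 0.000737), S39221_g_at and U11418_s_at of Grin1 (r = 0.56, rho = 0.49, permutation p = 0.00567, adjusted 0.0241) and M36418_s_at and S56679_s_at of Gria1 (r = 0.53, rho = 0.53, permutation p = 0.00793, adjusted 0.027). By Spearman's rho these and the Gria1 pair S56679_s_at and X17184_at passed (rho = 0.50, permutation p = 0.0139, adjusted 0.0474; r = 0.46, permutation p = 0.0224, adjusted 0.0544; r without the 2 farthest arrays 0.49, and 0.52 and 0.68 within the low and high spike-in arrays). For the 5 pairs above, without the 2 arrays farthest from the median r was 0.72, 0.44, 0.61, 0.25 and 0.36 in that order, so the relations of Grin1, Gria3 and Gria1 rest in part on those arrays. Within the 15 low spike-in arrays the values were 0.65, 0.84, 0.75, 0.48 and 0.73, and within the 9 high ones 0.83, 0.74, 0.18, 0.79 and 0.27. The permutations exchanged all arrays freely, although all values of an array share its hybridisation. Their p values therefore do not show that 2 probe sets read the same transcript. In the same order, the highest r of the brighter probe set with any of 4197 other genes was 0.89, 0.80, 0.94, 0.79 and 0.75. The pairs of Grin2a, Grin2c and Grin2d had r of 0.24, -0.13 and 0.36. The Grin1 pairs other than the one named above had r of -0.05 to 0.28. M36421_s_at of Gria4 had r of 0.38 with S94371_at and 0.31 with S94371_g_at. For all of these genes the value depends on which probe set is read.

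The genes most like each subunit over the 24 arrays, out of 4197 searched, are given as a description, since all values of an array share its hybridisation. Grin1 was most like Arf3 (r = 0.79) and Ppp3r1 (0.68), Grin2a like Hes5 (0.73) and Synj2 (0.71), and Grin2b like RT1-Bb (0.63) and Fshr (0.63). Grin2c was most like Cilk1 (0.74) and Rab11fip5 (0.71), and Grin2d like Ache (0.81) and Shc3 (0.77). For the AMPA subunits the closest were Aqp4 (0.75) and Hpcal4 (0.65) for Gria1, LOC102546572 (0.94) and Eif3m (0.91) for Gria2, Prp2l1 (0.80) and Tcf4 (0.75) for Gria3, and Ppp1cc (0.89) and Nptx1 (0.81) for Gria4. The closest correlations were those of Gria2 and the weakest those of Grin2b.

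Other genes of glutamate signalling were read from fixed lists, 0 of which held a called gene in any comparison with limma. Grin3a, a glycine-binding NMDA subunit, differed from control by -0.41 after 10 halothane exposures (adjusted p = 0.67) and -0.28 after 10 isoflurane exposures. Of the kainate and delta receptor genes 6 of 7 were measured, and after 10 halothane exposures 2 were higher and 4 lower, with a median of -0.10. After 10 isoflurane exposures 3 were higher and 3 lower, with a median of 0.06. Of the metabotropic receptor genes 7 of 8 were measured. After 10 halothane exposures 1 was higher and 6 lower, and after 10 isoflurane exposures 2 were higher and 5 lower, with medians of -0.09 and -0.16. Grm5, a metabotropic receptor coupled to calcium release, was the 1 gene of this list with an unadjusted p under 0.05 in either group, with values of -0.71 (adjusted p = 0.66) and -0.94 (adjusted p = 0.38).

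Of the genes for synaptic scaffolds and receptor trafficking 25 of 37 were tested. After 10 halothane exposures 11 were higher and 14 lower, and after 10 isoflurane exposures 10 were higher and 15 lower. An unadjusted p under 0.05 was found for 1 and 4 of the 25, beside 7.52% and 9.05% of all probe sets. Nptx1, a neuronal pentraxin that gathers AMPA receptors at synapses, had values of 0.53 (adjusted p = 0.64) and 0.69 (adjusted p = 0.37). Grip2, a scaffold that binds the tail of AMPA receptors, had -0.40 after 10 isoflurane exposures (adjusted p = 0.30).

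Markers of other cell types and regions were read in the groups of 10 exposures, and limma called 0 of them. An unadjusted p under 0.05 was found after 10 halothane exposures for 3 granule cell, 2 Purkinje cell, 0 hippocampal and cortical and 3 blood markers, and after 10 isoflurane exposures for 1, 3, 0 and 3, beside 7.52% and 9.05% of all probe sets. For cerebellar granule cells 4 of 9 markers were on the array, and all 4 were higher, with median log2 differences of 0.80 after halothane and 0.50 after isoflurane. Their summed intensity ran from 751.9 to 2509.5 in controls, 1933.0 to 3133.9 after 10 halothane exposures and 1315.8 to 3240.2 after 10 isoflurane exposures. For Purkinje cells all 3 measured markers of 6 were higher, with medians of 0.62 and 0.46 and sums of 2024.6 to 3073.5, 2955.3 to 3864.5 and 2669.0 to 3595.6. The hippocampal and cortical markers had 0 of 4 tested genes higher after 10 halothane exposures, with a median of -0.28 and sums of 2618.2 to 4172.7 in controls and 2587.8 to 2895.7 in that group. After 10 isoflurane exposures 1 of these 4 was higher, with a median of -0.11. The 3 measured blood markers were all lower, with medians of -0.91 and -0.86, and sums of 374.8 to 824.2 in controls, 276.0 to 295.2 after 10 halothane exposures and 254.9 to 434.0 after 10 isoflurane exposures. The 5 measured choroid plexus markers of 7 were all higher after 10 halothane exposures, with a median of 0.42, and 4 were higher after 10 isoflurane exposures, with a median of 0.34. Their sums ran from 3011.8 to 4909.2 in controls, 4291.2 to 6884.2 after halothane and 4418.6 to 5749.0 after isoflurane. All 8 oligodendrocyte markers were lower after 10 halothane exposures (median -0.23, sums 8868.5 to 12916 in controls and 8344.1 to 11475), against 5 of 8 after 10 isoflurane exposures. Of 6 striatal markers 5 were lower after 10 halothane and 6 after 10 isoflurane exposures (medians -0.23 and -0.22, sums 940.7 to 1604.2 in controls, 622.2 to 1439.4 and 926.8 to 1182.3). Medians after 10 halothane and 10 isoflurane exposures were -0.07 and 0.06 for pan-neuronal and 0.08 and 0.05 for astrocyte markers. They were 0.05 and 0.03 for microglia and macrophage markers, and -0.07 and -0.11 for endothelial and mural cell markers. An unadjusted p under 0.05 was also found for 1 pan-neuronal and 1 astrocyte marker after 10 halothane exposures, and 0 of either after 10 isoflurane exposures. The part of any of these lists in the levels of Gria4, Grin2c and the other members was not tested.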

How the data were processed

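The deposited table gives 1 linear intensity per probe set and array, as the authors made it; the software, background step and scaling are not given in the sources used here. Values below 16.5 (the table's 25th percentile) were set to it, and log2 was taken with the deposited scaling kept. Probe sets above it on at least 3 arrays, without the platform's control probe sets, were tested: 7389 of 8799. limma 3.58.1 (R 4.3.3) fitted 24 arrays in 5 groups, with trended eBayes and Benjamini-Hochberg adjustment over all 7389, for 10 comparisons. The fit was tested on simulated data. Probe sets were named by the platform table, and a suffix of _s_at marks probes shared between sequences. All members were described, and the brightest probe set by mean intensity led each gene; from other lists the 3 genes with the lowest p were candidates to be named, and for likeness the 2 highest correlations. Same-numbered arrays were checked for shared deviations from their group means, and all 3 correlations exceeded 0.1 between 10 halothane and 10 isoflurane exposures (0.22 to 0.47) and between 10 and 5 isoflurane exposures (0.15 to 0.46), a pairing that comes from the data and not from the labels; it was not met in the other comparisons made. Pair correlations used 100000 permutations, two-sided, adjusted over 17 pairs. Members and lists were chosen with earlier results of these data known. The number of arrays limits the precision. Alternatives changed normalisation, floor, filter, weights, arrays and blocks.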

Additional observations from a re-analysis of the deposited data

How the results depend on the processing

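The count of 0 called members held in all comparisons under every alternative run, except with the replicate block, and leaving out 1 array at a time gave 0 to 0. In the comparisons with control the replicate numbers did not pair the arrays throughout. Controls 1 and 2 correlated with their same-numbered exposed arrays at -0.18 to 0.06, but control 3 did so at 0.24 to 0.31. The fit with the replicate block sets exposed arrays against controls 1 to 3 alone, by construction, and called 2 members after 10 halothane exposures (0.203% of all probe sets in that fit), Gria3 M36420_s_at (1.11) and Gria4 S94371_at (1.42), both with a limma adjusted p of 0.027, and the same 2 in all exposed groups against control (0.365% of all probe sets; 1.03 and 1.27, adjusted p = 0.020). Those controls were among the low ones on both probe sets, and the block changed no other call. Without the block the values of Gria3 M36420_s_at were 0.32 after 10 halothane exposures and 0.24 in all exposed groups, and those of Gria4 S94371_at 0.72 and 0.57. Over the 5 comparisons with control, 170 of 3850 log2 differences of members took the other sign under an alternative and 32 moved by more than 1 SD of the controls.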
